A study of Bombyx mori with 4 samples.

Results

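The vacuolar-type H+-ATPase (V-ATPase) is a rotary proton pump built from many subunits, and the genes described here are those whose best protein hit names it. The members were found by a text rule on the hit (v-atpase, v-type proton, vacuolar ATP, vacuolar ATPase, vacuolar H+, vacuolar proton, or an H+ transporting ATP synthase with a V-type or lysosomal label), which 14 of 5558 gene models met. Of these 14, 11 reached 1 RPM (tags per 1000000 tags of the library) in some library and 5 reached 10 RPM. The midguts came from silkworms, Bombyx mori, sampled on day 2 of instar 5, the final larval stage. The 4 groups were 932 heat, 932 control, HY heat and HY control. The labels describe 932 as thermtolerant and HY as thermsensitive, and heat means exposure to high temperature. The labels state no temperature, no duration and no number of larvae per library.

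With 1 library in each group there are no replicates, every comparison is between single libraries, and no p-value is given. Read as whole tags, the deposited values gave library totals of 5828615 tags for 932 heat, 6139297 for 932 control, 6005743 for HY heat and 5799076 for HY control. They carry no correction for gene length, so levels are compared between libraries within a gene and not between genes. Square brackets hold exact 95% intervals for log2 ratios of tag numbers, which cover counting error only. Models matched by name to digestive and peritrophic genes of midgut epithelium were present in each library, with summed levels of 8811 RPM in 932 heat, 16389 in 932 control, 12142 in HY heat and 9029 in HY control over 41 models. The name match also took in protease inhibitors such as antitrypsin isoform 3 (BGIBMGA009953) and chymotrypsin inhibitor CI-8A (BGIBMGA001983), so not all 41 are digestive or peritrophic genes.

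The pump works in 2 sectors. The peripheral V1 sector splits ATP at alternating A and B subunits and turns a central stalk that includes D and F, while E and G form the outer stalks that hold the sector still. The membrane sector V0 carries protons across a turning ring of proteolipid subunits beside the fixed subunit a, and subunit d couples that ring to the stalk. In the larval midgut of Lepidoptera the pump sits in the apical membrane of goblet cells, where it energises cation secretion into the gut lumen and, through it, the uptake of amino acids. In the tobacco hornworm Manduca sexta the V1 sector is known to come off the membrane during moulting and starvation. Insect cells also use the pump to acidify lysosomes and other compartments.

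Among the 14 models, 7 named a V1 subunit (A, B, C, D, E, F and G) and 5 a V0 subunit. The V0 models were the 16 kDa proteolipid, the 21 kDa proteolipid, subunit d and a pair of models that both hit subunit a of the hornworm. The remaining models were the accessory subunit S1, a membrane glycoprotein that accompanies the pump, and BGIBMGA002432, whose hit is a vacuolar proton ATPase with no subunit named. Hits were silkworm proteins for 9 models, monarch butterfly proteins for 2 and hornworm proteins for 3. Symbols from the RefSeq table were found for 8 models, of which only the 16 kDa proteolipid (VATPc) had a name beyond a locus number.

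The members were highest in the library of unheated 932 larvae and lower in the other 3 libraries. Of the 11 models with at least 1 RPM, 10 had their highest value in 932 control, a library that held the highest value for 24.5% of all models above the same floor. For 7 of the 11 the value in 932 control was at least 2-fold above that in each of the other libraries, as it was for 3.36% of all models. Summed over the 14 models, the level was 729 RPM in 932 heat, 2608 in 932 control, 612 in HY heat and 890.3 in HY control. All listed gene models together held 15.2% of the library tags in 932 heat, 18.6% in 932 control, 15.0% in HY heat and 11.6% in HY control. As a share of that listed sum, the members came to 0.48%, 1.40%, 0.41% and 0.77% in the same libraries. In whole tissue, fewer cells that carry the pump and less pump RNA per cell cannot be told apart. The midgut epithelium markers were also at their highest sum in 932 control, and the summed members came to 8.28% of that marker sum in 932 heat, 15.9% in 932 control, 5.04% in HY heat and 9.86% in HY control. The models with the highest values in that sum did not share the same order of libraries. In 932 heat, 932 control, HY heat and HY control, a peritrophic membrane protein (BGIBMGA001491) read 1982, 6170, 5774 and 3129 RPM. Trypsin alkaline A (BGIBMGA003568) read 926, 2052, 603 and 264 RPM in those libraries. Aminopeptidase N (BGIBMGA008060) read 928, 1440, 2015 and 1758 RPM and was highest in HY heat. The part of epithelial content in the result was not tested.

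**Figure D1:**
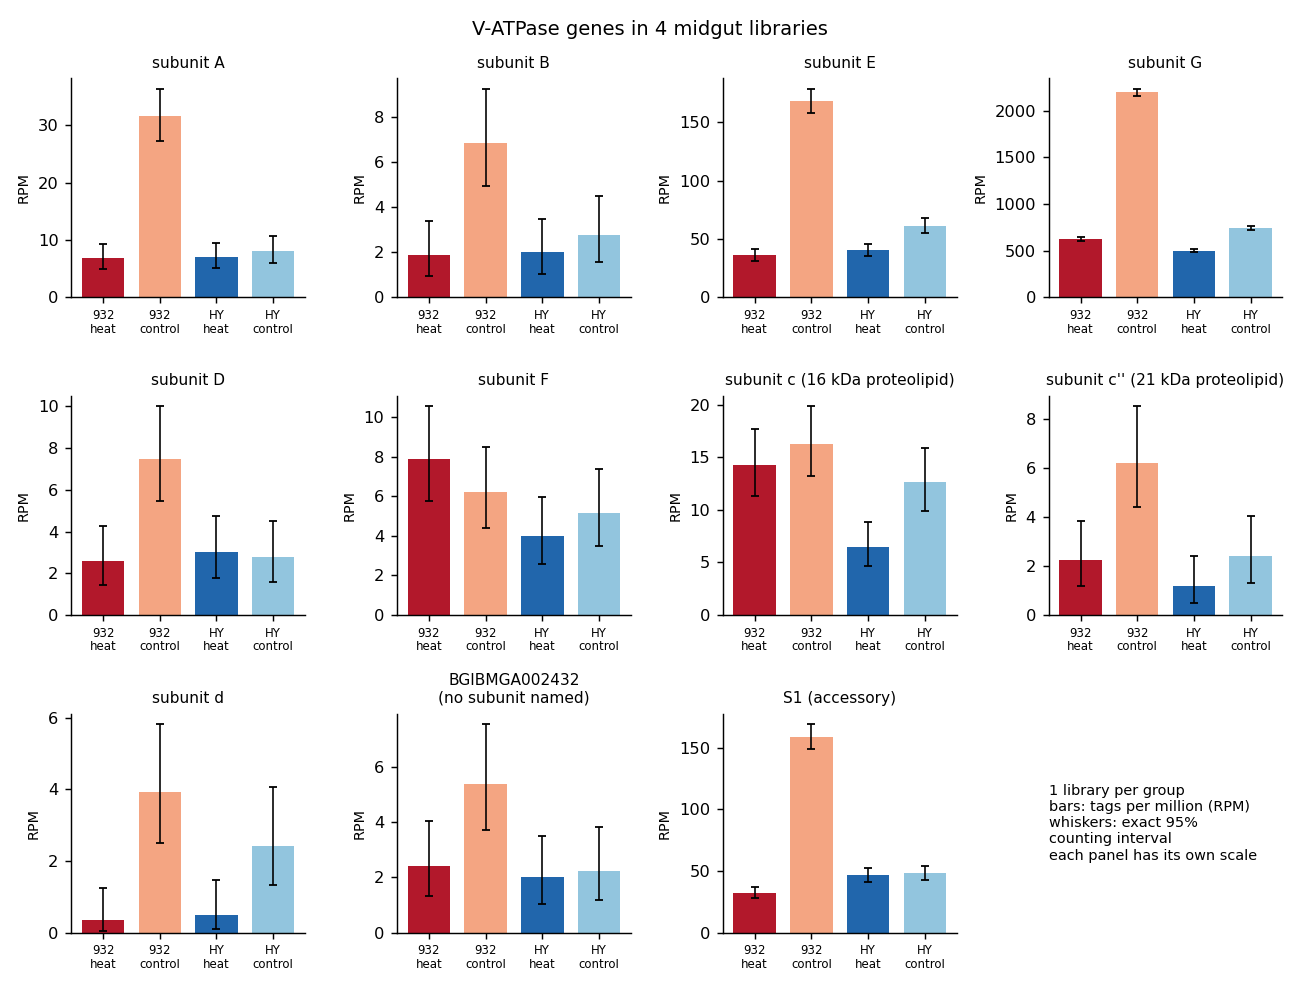
Level in RPM (vertical axes, each with its own scale from 0) of the 11 V-ATPase genes with at least 1 RPM, in the libraries 932 heat, 932 control, HY heat and HY control; bars are the single library of each group and whiskers the exact 95% counting interval. In 10 of the 11 panels the bar of 932 control is the highest, and only subunit F is highest in 932 heat.

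Catalytic subunit A (BGIBMGA008295), which binds and splits ATP, read 6.86 RPM in 932 heat and 31.6 in 932 control, against 6.99 in HY heat and 8.10 in HY control. The value of unheated 932 larvae stood alone, and the counting intervals of the other 3 libraries overlapped. Its log2 tag ratio of heat over control was -2.20 [-2.73 to -1.71] in 932 and -0.21 [-0.85 to 0.42] in HY. Subunit B (BGIBMGA002241), the partner of A in the ATP-splitting ring, read 1.89 RPM in 932 heat, 6.84 in 932 control, 2.00 in HY heat and 2.76 in HY control. Its order of libraries was the same as that of A. Its ratio was -1.86 [-2.96 to -0.88] in 932 and -0.47 [-1.68 to 0.71] in HY, from 11 to 42 tags a library.

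The outer stalk subunits were the most deeply counted members and gave the narrowest intervals. Subunit G (BGIBMGA013678) read 622 RPM in 932 heat, 2196 in 932 control, 498 in HY heat and 742 in HY control. Its ratio of heat over control was -1.82 [-1.87 to -1.77] in 932, a level 3.53-fold lower, and -0.57 [-0.64 to -0.51] in HY, 1.49-fold lower. Subunit G was thus below control after heat in both varieties, with the wider gap in 932. Subunit E (BGIBMGA010247) read 36.0 RPM in 932 heat, 168 in 932 control, 40.6 in HY heat and 61.0 in HY control. Its ratio was -2.22 [-2.44 to -2.01] in 932, or 4.66-fold lower, and -0.59 [-0.83 to -0.35] in HY. The intervals of E and G did not overlap in 932, where E stood further below control than G, and they overlapped in HY.

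A second model with a subunit E hit, BGIBMGA010246, fell outside the text rule because its hit writes the proton as H[+]. It read 1.2 RPM in 932 heat, 4.07 in 932 control, 0.50 in HY heat and 0.34 in HY control. Its ratio in 932, -1.76 [-3.21 to -0.51], lay on the same side of 0 as that of BGIBMGA010247. Tags of 1 gene may be split between models with the same named hit, and this holds for the pair of subunit a models as well.

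The central stalk subunits D and F, which turn inside the ATP-splitting ring, differed from each other. Subunit D (BGIBMGA008542) read 2.57 RPM in 932 heat, 7.49 in 932 control, 3.00 in HY heat and 2.76 in HY control. Its ratio was -1.54 [-2.49 to -0.67] in 932 and 0.12 [-0.94 to 1.19] in HY, so D followed the pattern of A. Subunit F (BGIBMGA008011) read 7.89 RPM in 932 heat, 6.19 in 932 control, 4.00 in HY heat and 5.17 in HY control. It was the 1 member above the floor that was not highest in 932 control, and its ratios of 0.35 [-0.30 to 1.01] in 932 and -0.37 [-1.21 to 0.45] in HY both spanned 0. In 932 the interval of F lay wholly above those of A, B, D, E and G.

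The V0 sector was counted less deeply. The 16 kDa proteolipid (VATPc, BGIBMGA001302), which forms the proton-carrying ring, read 14.2 RPM in 932 heat and 16.3 in 932 control, against 6.49 in HY heat and 12.6 in HY control. Here the low library was HY heat, and the other 3 were close together. Its ratio was -0.19 [-0.63 to 0.24] in 932 and -0.95 [-1.55 to -0.37] in HY, and the 932 interval lay wholly above those of A, B, E and G. The 21 kDa proteolipid (BGIBMGA000231), a further ring subunit, read 2.23 RPM in 932 heat, 6.19 in 932 control, 1.17 in HY heat and 2.41 in HY control. It was below control after heat in both varieties, with ratios of -1.47 [-2.51 to -0.53] in 932 and -1.05 [-2.60 to 0.35] in HY.

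Subunit d (BGIBMGA003196), the coupling subunit, read 0.34 RPM in 932 heat, 3.91 in 932 control, 0.50 in HY heat and 2.41 in HY control. The heat libraries held 2 tags in 932 and 3 in HY, so d reached the floor only in the control libraries, and a gene that passes in this way has to be higher there. Its ratios of -3.51 [-6.64 to -1.50] in 932 and -2.27 [-4.71 to -0.43] in HY overlapped widely. Subunit a, the fixed part of the proton path, was near the limit of counting in both its models. BGIBMGA002538 read 0.51 RPM in 932 heat and 0.33 in 932 control, and BGIBMGA002539 read 0.34 and 0.65 in those libraries, while both models were listed at 0 in HY heat and HY control. Subunit C (BGIBMGA013963), which links V1 to V0, read 0.33 RPM in 932 control, a value of 2 tags, and was listed at 0 in the other 3 libraries. The lowest listed value in each library is 2 tags, so a value of 0 can stand for 0 tags or 1 tag, and no fold is given for these 3 models.

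Accessory subunit S1 (BGIBMGA014403) read 32.4 RPM in 932 heat, 159 in 932 control, 46.5 in HY heat and 48.5 in HY control. It was 4.90-fold lower in 932 heat than in 932 control, at -2.29 [-2.53 to -2.07], and nearly level in HY, at -0.06 [-0.31 to 0.18]. The unnamed vacuolar proton ATPase (BGIBMGA002432) read 2.40 RPM in 932 heat, 5.38 in 932 control, 2.00 in HY heat and 2.24 in HY control. Its ratio was -1.16 [-2.18 to -0.22] in 932 and -0.17 [-1.43 to 1.08] in HY, and like S1 it was highest in 932 control.

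**Figure D2:**
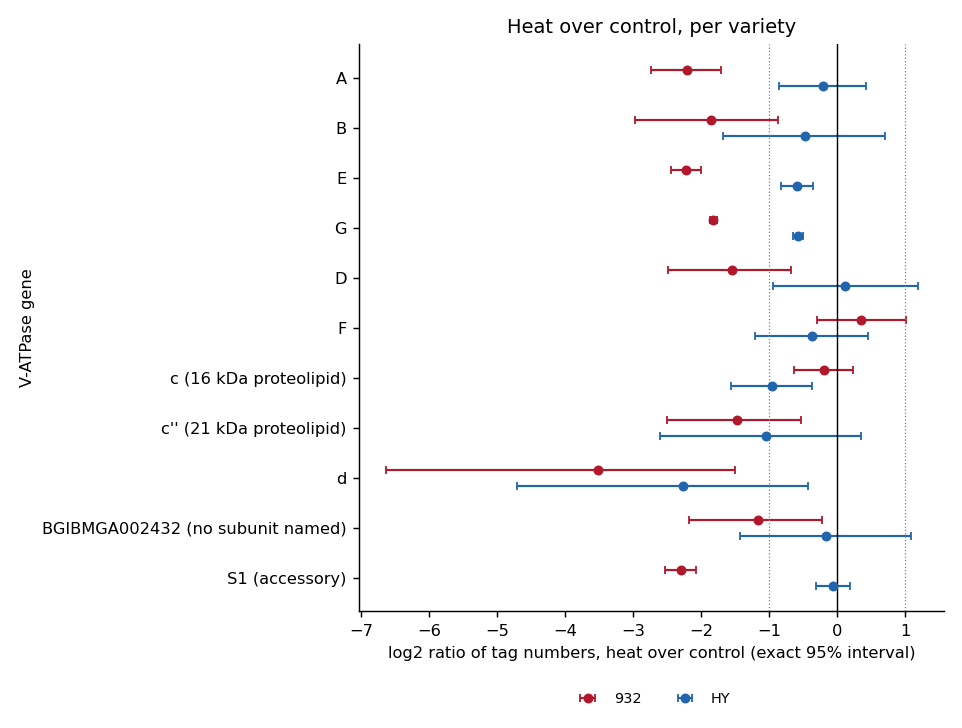
Log2 ratio of tag numbers, heat over control (horizontal axis), for the 11 V-ATPase genes with at least 1 RPM in 932 (red) and HY (blue), with exact 95% counting intervals; dotted lines mark 2-fold. In 932 the intervals of A, E, G, d and S1 lie wholly beyond 2-fold lower and those of F and the 16 kDa proteolipid span 0, while in HY no interval lies wholly beyond 2-fold.

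For the count of members, the log2 ratio of RPM plus 1 was used, which understates the change of low genes, and a gene was counted from 2-fold on if either library (any, for differences of responses) reached 1 RPM. In 932, 8 of 11 members were at least 2-fold lower after heat, where 9.86% of all 2708 models above the floor were. None of the 11 was at least 2-fold higher, against 11.1% of all models. The median of the members was -1.44 and that of all models 0.02. The 8 members were A, B, D, E, G, the 21 kDa proteolipid, d and S1, and 7 of them passed the floor in both libraries. By a stricter rule, the whole counting interval beyond 2-fold, 5 of 11 members were lower, where 3.51% of all models were, and none was higher, where 3.95% were. With a floor of 10 RPM, 4 of 5 members were at least 2-fold lower, against 12.3% of all models. Subunit A passed this floor only through 932 control, so it had to be lower after heat.

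In HY, 1 of 11 members was at least 2-fold lower after heat, where 4.59% of all 2810 models were, and none was higher, where 14.1% were. That member was d, which rests on 3 tags in HY heat and 14 in HY control. By whole intervals no member was beyond 2-fold in HY, where 1.92% of all models were lower and 4.13% higher. The median of the members was -0.33, while the median of all models was 0.34 in this comparison. The median member thus stood below the median gene without passing 2-fold. Of the 11 members 10 had a ratio below 0, as did 869 of the 2810 models. With values centred on the median gene or scaled by median-of-ratios factors, 2 of 11 were at least 2-fold lower in HY. Centring takes 0.34 off the ratio of every model, and the share of all models under these scalings is not given.

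**Figure D3:**
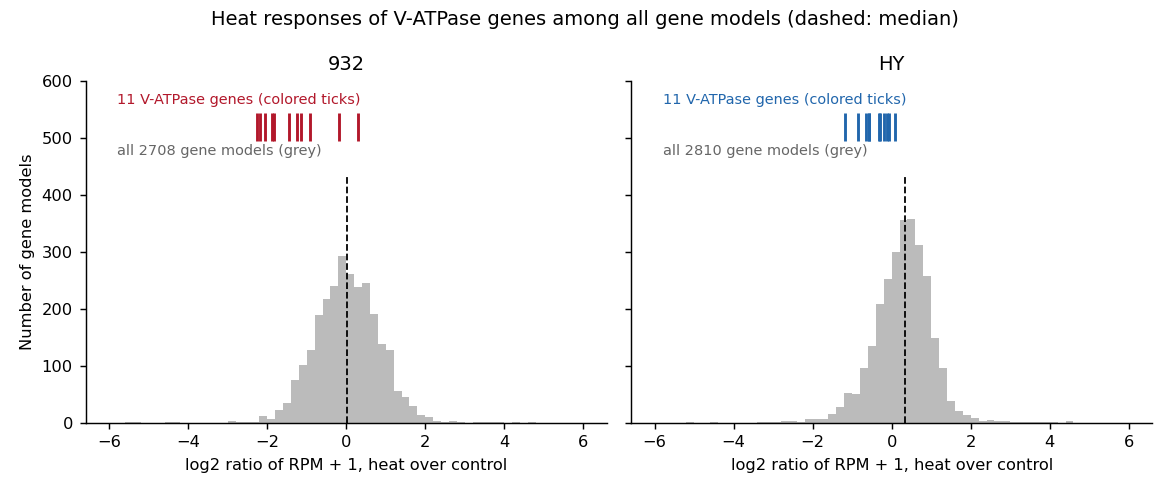
Number of gene models (vertical axis) by log2 ratio of RPM plus 1, heat over control (horizontal axis), in 932 (left, 2708 models) and HY (right, 2810 models), with the 11 V-ATPase genes as colored ticks and the median of all models as a dashed line. The ticks in 932 reach from -2.26 to 0.31 around a median of -1.44, and those in HY from -1.18 to 0.09, below a dashed line at 0.34.

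The heat responses were then set against each other as 932 minus HY. On the scale of RPM plus 1, 6 of 11 members had a response at least 2-fold more negative in 932, where 18.8% of 3214 models did, and none had one at least 2-fold more positive, where 8.09% did. The median difference was -1.11 for the members and -0.25 for all models. On tag numbers the difference was -2.23 [-2.57 to -1.90] for S1, -1.99 [-2.81 to -1.16] for A, -1.63 [-1.96 to -1.31] for E and -1.25 [-1.33 to -1.16] for G. These 4 and D, at -1.66 [-3.08 to -0.24], had intervals wholly below 0. The 16 kDa proteolipid went the other way, at 0.76 [0.02 to 1.51], and F was on the same side at 0.72 [-0.35 to 1.80]. The intervals of B, the 21 kDa proteolipid, d and BGIBMGA002432 spanned 0. Each response rests on 1 pair of libraries, so these intervals compare libraries and not varieties.

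The varieties were also compared directly under each condition. In control larvae all 11 members above the floor were higher in 932 than in HY, as were 1457 of the 2780 models, and 7 of 11 were at least 2-fold higher, where 17.9% of 2780 models were. None was at least 2-fold lower, where 15.1% of models were. By whole intervals 4 of 11 were beyond 2-fold higher, where 10.1% of models were, and none was lower, where 7.81% were. The median of the members was 1.08 and that of all models 0.05. The tag ratio of 932 over HY was 1.96 [1.5 to 2.46] for A, 1.71 [1.52 to 1.91] for S1, 1.56 [1.51 to 1.61] for G and 1.46 [1.28 to 1.64] for E. It was nearer to 0 for the 16 kDa proteolipid, at 0.37 [-0.08 to 0.83], and for F, at 0.26 [-0.47 to 1.00], the same members that stood apart in the heat comparison of 932. Both comparisons use the 932 control library, so these results are not separate.

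After heat the members were much closer between the varieties. Of the 10 members above the floor 1 was at least 2-fold higher in 932, where 14.1% of 2990 models were, and none was at least 2-fold lower, where 20.8% were. The member was the 16 kDa proteolipid, with a tag ratio of 1.13 [0.57 to 1.72]. By whole intervals none was beyond 2-fold, where 7.96% of models were higher and 9.3% lower. The median of the members was 0.08 and that of all models -0.26. Subunit F stood at 0.98 [0.24 to 1.76] and G at 0.32 [0.25 to 0.39], both higher in 932 heat than in HY heat. S1 was lower in 932 heat, at -0.52 [-0.79 to -0.25]. The intervals of A, B, D, E, the 21 kDa proteolipid, d and BGIBMGA002432 spanned 0, with that of A from -0.69 to 0.63.

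**Figure D4:**
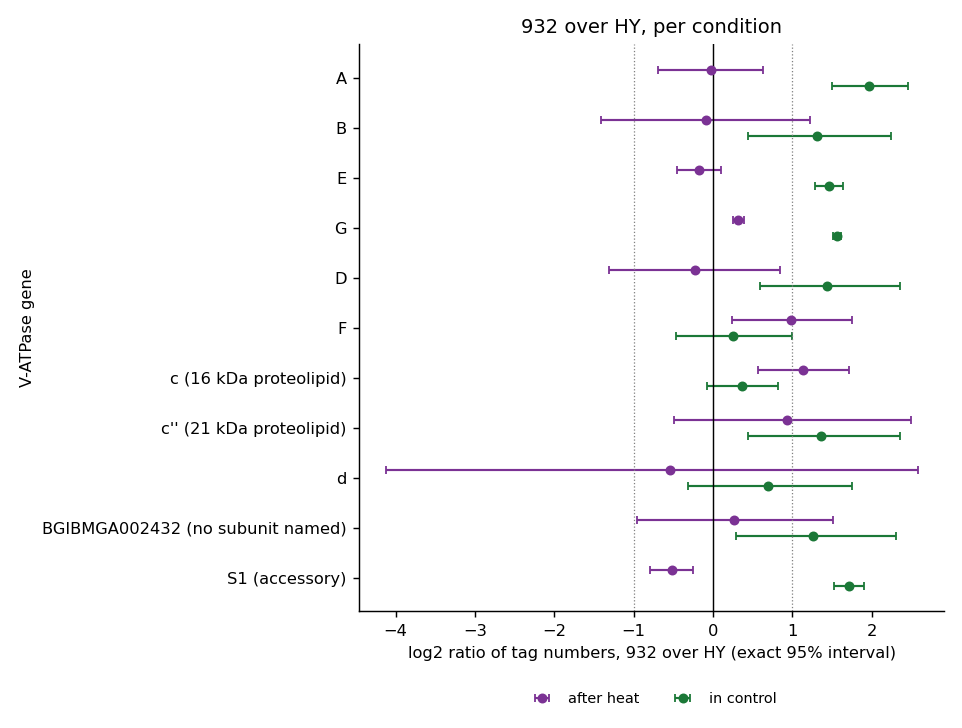
Log2 ratio of tag numbers, 932 over HY (horizontal axis), for the 11 V-ATPase genes with at least 1 RPM, after heat (purple) and in control (green), with exact 95% counting intervals; dotted lines mark 2-fold. In control the intervals of A, E, G and S1 lie wholly beyond 2-fold higher in 932, and after heat none does.

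Mitochondrial ATP synthase, the rotary relative of the pump that makes ATP from a proton gradient, served as the nearest list. In 932 after heat 4 of its 9 models were at least 2-fold lower, none was 2-fold higher, and the median was -0.96. Of all models above the floor, 9.86% were at least 2-fold lower and 11.1% higher in 932. In HY none of the 9 was past 2-fold in either direction, with a median of -0.05, where 4.59% of all models were lower and 14.1% higher. The same shares apply to the lists below, so a count of 1 or 2 models is not read as a result about a list. The O subunit (BGIBMGA011504), part of the stalk, read 143 RPM in 932 heat and 424 in 932 control, against 217 in HY heat and 212 in HY control. The beta subunit isoform 2 (BGIBMGA012555), which carries the catalytic sites, read 114 and 331 in 932 heat and 932 control, and 142 and 158 in HY heat and HY control. The gamma subunit (BGIBMGA013965), the turning shaft, read 34.1 and 145 in the 932 libraries and 13.7 and 11.6 in the HY libraries, in the same order. Coupling factor 6 (BGIBMGA000804) read 131 and 204 in 932 and 154 and 92.3 in HY. All of the 7 ATP synthase models with at least 10 RPM were highest in 932 control, where 340 of 1198 models (28.4%) at that floor were, and with the floor of 1 RPM it was 7 of 9. In 2 of those 9 models 932 control was at least 2-fold above each other library, against 7 of 11 for the pump and 3.36% of all models. In other comparisons this list was close to the pump. Its heat response was at least 2-fold more negative in 932 for 5 of 9 models, where 18.8% of all models were. The median difference was -1.14, against -1.11 for the pump. For 932 over HY in control its median was 0.97, against 1.08 for the pump.

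The list of pump assembly and regulation genes moved less. None of its 6 models above the floor was past 2-fold in 932 after heat, with a median of -0.57. Of all models 9.86% were lower and 11.1% higher there. In HY 1 of 7 was at least 2-fold higher, where 14.1% of all models were, none was 2-fold lower, and the median was 0.16. Rabconnectin (BGIBMGA001416), whose relatives help to assemble the pump in yeast and mammals, read 4.29 RPM in 932 heat, 6.35 in 932 control, 10.3 in HY heat and 7.07 in HY control. Fructose 1,6-bisphosphate aldolase (BGIBMGA013021), a glycolytic enzyme that binds the pump in yeast, read 143 in 932 heat and 142 in 932 control, and 80.4 in HY heat and 131 in HY control. It was level in 932 and lower after heat in HY. The adapter 14-3-3 epsilon (BGIBMGA013201) read 34.8 and 57.0 in the heat and control libraries of 932 and 88.1 and 78.6 in those of HY. A catalytic subunit of cAMP-dependent protein kinase (BGIBMGA011986) read 0.51 and 0.33 RPM in the heat and control libraries of 932 and 11.0 and 3.97 in those of HY, and was the member past 2-fold in HY.

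Transporters that a proton pump can energise had few models above the floor. In 932 after heat none of 4 was past 2-fold, with a median of -0.63, and in HY 1 was at least 2-fold lower and 1 higher. Of all models in HY 4.59% were lower and 14.1% higher. The amino acid transporter +nsd-2 (BGIBMGA007228) read 48.9 RPM in 932 heat and 71.5 in 932 control, against 15.98 in HY heat and 103 in HY control. The CD98 heavy chain homologue (BGIBMGA005068), an amino acid transporter partner, read 34.0 and 37.8 in the heat and control libraries of 932 and 41.3 and 44.0 in those of HY. Among other ion pumps and channels 1 of 4 models was at least 2-fold lower in 932 after heat, where 9.86% of all models were. None was 2-fold higher, and in HY none of 3 was past 2-fold. A carbonic anhydrase (BGIBMGA008042), an enzyme that supplies protons and bicarbonate, read 23.5 RPM in 932 heat, 39.1 in 932 control, 37.8 in HY heat and 31.2 in HY control. The model past 2-fold in 932 was another carbonic anhydrase (BGIBMGA003357). It read 2.57 RPM in 932 heat, 9.28 in 932 control, 3.33 in HY heat and 5 in HY control.

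Lysosomal enzymes, which work in compartments that the pump acidifies, were matched by name. The match also took in a phosphatidic acid phosphatase (BGIBMGA009608), a mannosyl-oligosaccharide alpha-mannosidase (BGIBMGA001011) and a venom acid phosphatase (BGIBMGA006176), so the counts are those of the list and not of lysosomal enzymes alone. In 932 after heat 2 of 9 were at least 2-fold higher, where 11.1% of all models were. None was 2-fold lower, and the median was -0.08. In HY 1 of 8 was at least 2-fold lower, where 4.59% of all models were, none was 2-fold higher, and the median was -0.03. Cathepsin D (CatD, BGIBMGA011344), a lysosomal protease, read 63.5 RPM in 932 heat and 81.8 in 932 control, and 77.9 in HY heat and 46.7 in HY control. The venom acid phosphatase, named by its hit, read 10.1 and 2.28 in the heat and control libraries of 932 and 2.00 and 15.5 in those of HY, in opposite directions.

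**Figure D5:**
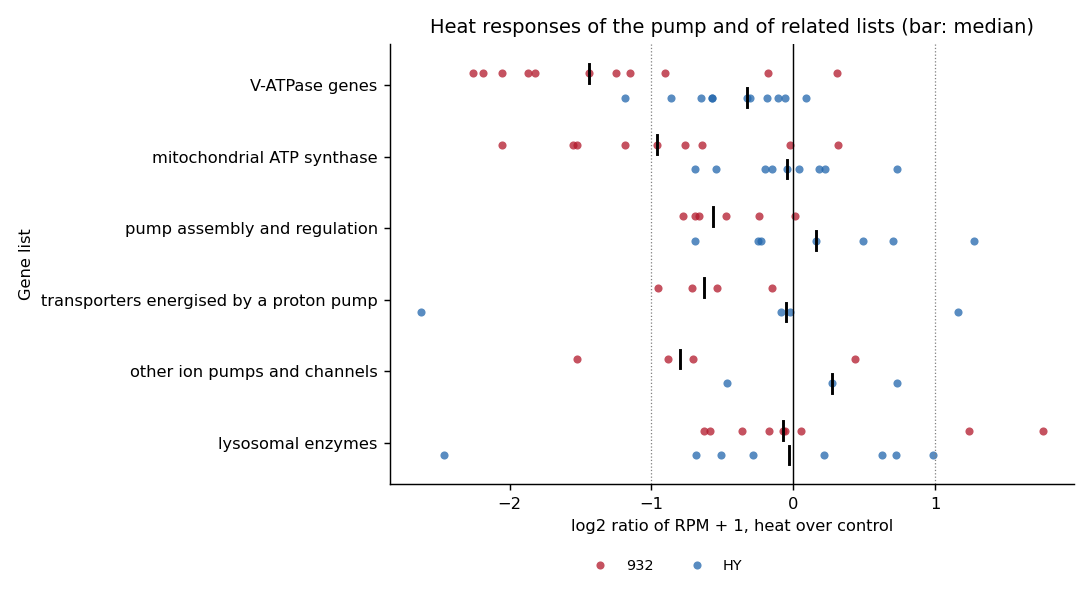
Log2 ratio of RPM plus 1, heat over control (horizontal axis), of the V-ATPase genes and of the related gene lists (rows) in 932 (red, above) and HY (blue, below); each point is a gene model above the floor of 1 RPM, and black bars are medians. In 932 the medians run from -1.44 for the V-ATPase genes and -0.96 for mitochondrial ATP synthase to -0.08 for lysosomal enzymes.

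Over the 4 libraries, the genes whose profile was nearest to that of the pump were sought by Euclidean distance between centred log2 profiles, with the median profile of the 5 members at 10 RPM or more as the target. Triosephosphate isomerase (Tpi, BGIBMGA000559), a glycolytic enzyme, was nearest at a distance of 0.38, with 4.46 RPM in 932 heat, 17.9 in 932 control, 5.66 in HY heat and 6.90 in HY control. Cytochrome c oxidase polypeptide IV (BGIBMGA013680), a respiratory chain subunit, followed at 0.46, with 84.8, 292, 55.1 and 79.0 RPM in the same libraries. A trypsin precursor (BGIBMGA010061) stood at 0.55, and both the ATP synthase beta subunit isoform 2 described above and an atlastin-2 homologue (BGIBMGA005742) at 0.58. The median distance of all 792 candidates was 1.95. Among the members the distance ran from 0.20 for A and G to 1.32 for the 16 kDa proteolipid and 1.65 for F. A, E, G, S1 and the 16 kDa proteolipid set the target themselves, so their distances cannot be read against those of the candidates. Candidates also had to reach 10 RPM in some library. Tpi and the trypsin precursor did so only in 932 control, as did subunit A in the target. Their peak in that library was thus partly set by the floor, and their nearness is not read as a result. A profile over 4 single libraries is a description of those libraries.

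Markers of other tissues that a dissected midgut could carry were summed in each library, and their part in the results was not tested. Muscle markers, which the gut wall itself contains, summed to 928 RPM in 932 heat, 1029.9 in 932 control, 1254 in HY heat and 860.1 in HY control over 12 models. Of the 4 Malpighian tubule markers, a tissue that is itself rich in the pump, 1 was listed at 0 in all libraries, and the sums were 44.8, 32.6, 173 and 111 RPM in the same order. The HY sums came mostly from an inward rectifier potassium channel (BGIBMGA013821), which read 1.89 and 1.14 RPM in 932 heat and 932 control and 146 and 87.8 in HY heat and HY control. Xanthine dehydrogenase (BGIBMGA010377), a further tubule marker, read 41.5 RPM in 932 heat, 30.5 in 932 control, 24.5 in HY heat and 20.35 in HY control. Fat body markers summed to between 27.5 and 40.3 RPM over 13 models and haemocyte markers to between 2.58 and 8 over 11, and of each list 4 were listed at 0 in all libraries. The silk gland list held fibroin P25, at 0.69 RPM in 932 heat and listed at 0 elsewhere, and a fibroinase, a protease. Cuticle and tracheal markers summed to 4055 RPM in 932 heat, 2995 in 932 control, 1807 in HY heat and 3688 in HY control over 22 models. Most of each sum came from cuticle proteins CPH43 (BGIBMGA013778 and BGIBMGA005302) and CPH45 (BGIBMGA004124) and a chitin synthase (BGIBMGA002961). In 932 heat these models read 1679, 1227, 896 and 239 RPM. The next highest model, chitin synthase B (BGIBMGA002960), reached 11.4 RPM in 932 control. The match by name did not separate chitin synthases of cuticle and trachea from those of the midgut itself, so this sum is not one of other tissues alone.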

How the data were processed

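The deposited table gives normalized values per gene model that the authors call TPM in the file headers, and that behave as RPM: each value is a whole tag number to within 0.0051 RPM, with no length correction. Tags could be recovered this way (lowest listed value 2 tags). RNA was extracted with Trizol and libraries followed Illumina protocols, per the labels. Aligner, counting, filters and build are not given in the sources used here, and no coordinates or sequences are printed.

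The members and lists were chosen with earlier results of these data known. Log2 ratios of RPM plus 1 were computed over the whole table, with a floor of 1 RPM and a 2-fold rule. Exact conditional 95% intervals came from tag numbers (Clopper-Pearson for ratios, the conditional odds ratio for differences of responses). With 1 library per group no test was possible. Every member was named, with up to 4 genes per list by difference of responses, among those with at least 10 RPM in 1 library, and the 5 nearest profiles (models with only an identifier as a name were passed over). Library totals and intervals were tested on simulated data. Alternatives covered the added value, floor, scaling, call rule and membership. Calculations ran in Python 3.11.15 with scipy 1.17.1, pandas 2.3.3 and numpy 2.4.6, and figures were drawn with matplotlib 3.10.9.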

Additional observations from a re-analysis of the deposited data

Results flagged for a closer look

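No V-ATPase gene moved in opposite directions in the varieties with both counting intervals away from 0. Among the 32 members, list genes and genes of similar profile named, 3 did, all of them list genes. The list genes were chosen for a large difference of responses, which favours such cases. The share of all models that meet this rule was not computed, so the count is not read as a result about the pump. The venom acid phosphatase BGIBMGA006176 was higher after heat in 932 and lower in HY, with a log2 difference of responses (932 minus HY) of 5.11. Coupling factor 6 of mitochondrial ATP synthase (BGIBMGA000804) was lower after heat in 932 and higher in HY, with a difference of -1.39. Cathepsin D (BGIBMGA011344) was also lower after heat in 932 and higher in HY, with a difference of -1.10. Each response rests on 1 pair of libraries, and the differences were not tested.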

How the results depend on the processing

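Of the member ratios past 2-fold there were 23, and their 151 values under the alternatives all kept direction, with 136 still past 2-fold. Members at least 2-fold lower in 932 after heat numbered 8 in the result as reported, 4 with 10 added, 4 with a floor of 10 RPM and 5 by whole intervals, and the median was -0.48 with 10 added. For heat in HY, where 1 was lower, the number was 0 with 10 added, 0 with a floor of 10 RPM, 0 by whole intervals, and 2 when centred on the median gene or with median-of-ratios factors. For 932 over HY in control, where 7 were higher, it was 4 with 10 added, 4 with a floor of 10 RPM and 4 by whole intervals, and the median was 0.40 with 10 added. With the floor of 10 RPM, 21.7% of all models were at least 2-fold higher there, and 4.89% were lower for heat in HY. Subunit A passed this floor only through 932 control, so it had to be higher there than in HY control. Shares of all models with 10 added or under the scalings are not given. For 932 over HY after heat, where 1 was higher, it was 0 with 10 added, 0 by whole intervals, and 2 when centred or with median-of-ratios factors. Adding 10 shrinks the ratios of low genes and a floor of 10 RPM leaves 4 or 5 members; for the scalings the cause was not tested. For the difference of responses, 6 members were lower as reported and between 4 and 7 under the alternatives, and the median of -1.11 ran from -1.61 with a floor of 10 RPM to -0.41 with 10 added. The median for heat in HY, -0.33 as reported, ran from -0.66 when centred to -0.12 with 10 added, and that of 932 over HY after heat, 0.08 as reported, from 0.02 with 10 added to 0.34 when centred. Including the second subunit E model, an alternative chosen after seeing the data, gave 9 of 12 lower in 932 after heat and 8 of 12 higher in 932 over HY in control. No paired analysis was possible because each group held 1 library. Depth limits subunits B, C, D, a and d, the 21 kDa proteolipid and BGIBMGA002432 most.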

Other observations

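Subunit G held most of the tags of the pump in every library, at 85.2% of the summed member level in 932 heat, 84.2% in 932 control, 81.5% in HY heat and 83.4% in HY control, on a scale with no length correction. Without G the members summed to 108 RPM in 932 heat, 412 in 932 control, 113 in HY heat and 148 in HY control.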
